A study of Mus musculus with 4 samples.

Results

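The mitochondrial ribosomal proteins are the 72 genes of the deposited tables whose symbol starts with Mrpl or Mrps followed by a digit, out of 11754 symbols listed. By name 44 belong to the large subunit (Mrpl) and 28 to the small subunit (Mrps), although the products of Mrps18a and Mrps30 sit in the large subunit. Their expression was measured by SAGE, in which a short tag next to an NlaIII restriction site is sequenced and counted, in alveolar macrophages, the resident phagocytes of the lung air spaces. The day 21 metastasis group was 2 libraries from BALB/c mice with lung metastases, studied 21 days after intravenous injection of BNL, a hepatocellular carcinoma line of the mouse. The untreated group was 2 libraries from untreated BALB/c mice. The labels call the mice of both groups wild type, name no other allele or agent, and give no age. Whether libraries of 1 group derive from different animals is not stated, and p-values therefore reflect the spread between samples that may be technical repeats. No injection control is described, so the injection itself and the metastases cannot be told apart.

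Mitochondrial ribosomal proteins are encoded in the nucleus, made in the cytosol and imported into the mitochondrial matrix. There they assemble with the ribosomal RNAs encoded by mitochondrial DNA into a large subunit, which forms peptide bonds, and a small subunit, which reads the messenger RNA. The ribosome makes only the few proteins encoded by mitochondrial DNA, all of them core parts of the respiratory chain and ATP synthase. Some of its proteins have counterparts in bacterial ribosomes and others occur only in mitochondria. Alveolar macrophages are known to rely on oxidative metabolism of lipids in the air space.

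The libraries held 1783814 and 1630776 counts in the day 21 metastasis group and 1962569 and 2198563 in the untreated group. Counts of 1 do not occur in these tables, so a gene listed at 0 can still have been read once per tag. Cathepsin D, 1 lysosomal protease gene, took 36.4% and 35.5% of all counts on day 21, against 24.9% and 22.4% in untreated cells (exact 95% bounds within 0.074 points), so levels are given as CPM (tags per 1000000 counts) scaled by the TMM method, which is little affected by 1 abundant gene. Of 12 listed alveolar macrophage markers 11 had counts, with summed levels of 1551 and 3621 CPM on day 21 and 1021 and 2448 CPM in untreated cells, while Fabp4 was listed at 0 in all libraries and Marco had 2 counts in 1 untreated library. Chi3l3, a secreted chitinase-like protein, made up most of the higher sum, with a mean of 1900 ± 1214 CPM on day 21 and 757 ± 607 CPM in untreated cells (SD, n = 2 each). The list's median log2 change was -0.32, with 6 of 10 tested markers negative and 4 lower in both day 21 libraries, Krt79 (-2.27) and Itgax (-0.69) among them. Fabp5 (1.67) was the 1 marker higher in both. In the edgeR test 0 passed an adjusted p of 0.05. Unadjusted, 3 had a p under 0.05 in that test, Krt79 lower and Chi3l3 and Fabp5 higher on day 21. Markers of monocyte-derived and interstitial macrophages summed to 2204 and 3331 CPM on day 21, against 63.0 and 133 CPM in untreated cells, and 6 of the 9 tested rose (edgeR quasi-likelihood test, adjusted p under 0.05). Apoe made up most of the day 21 sum. Its mean was 2211 ± 688 CPM on day 21 and 53.1 ± 35.1 CPM in untreated cells (SD, n = 2 each). The neutrophil list summed to 75.5 and 278 CPM on day 21 and to 9.27 and 158 CPM in untreated cells, the lung epithelial list to 19.3 and 4.95 CPM on day 21 and to 53.2 and 28.8 CPM in untreated cells, and the 6 listed lymphocyte markers were at 0 in all 4 libraries. The part of other cell types in the values below was not tested, and in RNA from whole cell samples fewer cells of a type and less RNA per cell cannot be told apart.

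Each gene was read through a few tags, and the 8 genes of highest level rested almost wholly on 1 tag each. Their main tags are shown because they carry most of what was counted. Each is 5′ to 3′ on the strand of the transcript, with the NlaIII site, completed from the enzyme's recognition sequence, in capitals and the 21 deposited bases in lower case.
Mrps14: CATGgcggcgtccgtgctaggctcg
Mrpl12: CATGgttatgaggacttacggacta
Mrps15: CATGcaaggagctaggggtggaata
Mrpl2: CATGaagagttatgtgaagctgccc
Mrpl48: CATGtgattgttggtctccgagaag
Mrps25: CATGggatgaaggccagggttgcca
Mrps35: CATGgacgagtatgtgtgggcaaag
Mrps7: CATGgtatacagacataggtgcaga

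Positions were found by matching each tag with its site to GENCODE M21 transcripts on GRCm38. The Mrps14 tag lies at chr1:160195266-160195290 on the plus strand in exon 1 of 3, and the ATG inside its NlaIII site is the start codon. It is site 12 of 12 counted from the 3′ end of the coding transcript, 2948 bases from that end, but the last site of a 674-base isoform annotated for nonsense-mediated decay. The Mrpl12 tag (chr11:120488437-120488461, plus strand) lies in the 3′ UTR at site 2 of 3. The tags of Mrps15 (chr4:126055058-126055082, plus strand) and Mrpl2 (chr17:46650051-46650075, plus strand) lie in coding sequence at the last site of a coding transcript.

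The Mrpl48 tag (chr7:100549266-100549290, minus strand) is a 3′ UTR tag at site 3 of 7. The Mrps25 tag (chr6:92174876-92174900, minus strand) is at site 31 of 37 in a long annotated 3′ UTR, 5376 bases from its end, and is the last site of a 565-base isoform with a retained intron. The Mrps35 tag (chr6:147070592-147070616, plus strand) is coding and at site 18 of 21, and the Mrps7 tag (chr11:115607243-115607267, plus strand) is in the 3′ UTR at site 4 of 9. Thus 6 of the 8 most abundant members were counted mainly at a site other than the last one of a coding transcript.

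Tags at the last site of a coding transcript, the site SAGE is designed to read, held 29.9% and 31.3% of the member counts on day 21 and 33.9% and 33.8% in untreated cells. Over all genes they held 81.2% and 74.8% of the counts on day 21 and 74.7% and 68.8% in untreated cells. Single abundant genes weigh on these shares. Without cathepsin D the shares of all genes were 71.7% and 62.2% on day 21 and 67.0% and 60.7% in untreated cells. With the gene Gm3903 also left out they were 75.8% and 71.2% on day 21 and 78.8% and 71.4% in untreated cells. Without Mrps14 the shares of the members were 42.3% and 48.5% on day 21 and 44.4% and 45.2% in untreated cells, with overlapping groups. When non-coding and decay isoforms are also allowed, the member shares were 77.9% and 80.6% on day 21 and 78.5% and 75.7% in untreated cells. Those of all genes were 84.6% and 77.9% on day 21 and 78.5% and 72.7% in untreated cells. Without cathepsin D the latter were 77.0% and 67.1% on day 21 and 72.1% and 65.8% in untreated cells. With Gm3903 also left out they were 81.4% and 76.8% on day 21 and 84.8% and 77.4% in untreated cells, so how near the members lie depends on these genes. Exact 95% intervals reach at most 1.5 percentage points from the shares over all members and 0.07 from those over all genes. Which isoform gave a tag was not tested. For the tags with the start codon inside the NlaIII site, which include the main tags of 6 members, the share was 31.0% and 38.5% on day 21 and 24.9% and 27.8% in untreated cells, most of it from Mrps14.

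**Figure D1:**
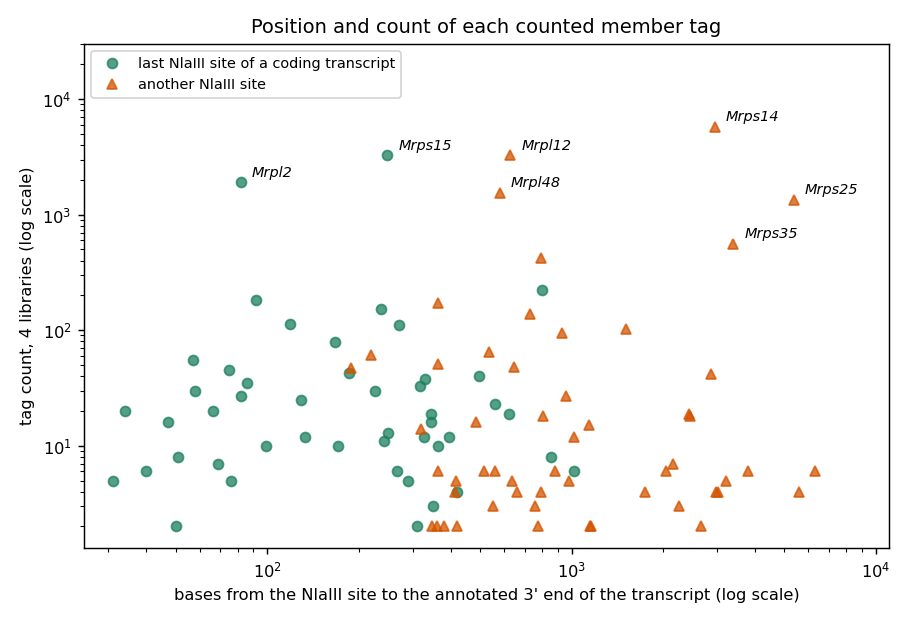
Each point is a counted member tag matched to a coding transcript of its gene, placed by the distance in bases from its NlaIII site to the annotated 3′ end of that transcript and by its count summed over the 4 libraries, both on log scales. Mrps14, Mrps25 and Mrps35 lie 2948, 5376 and 3400 bases from the end, while Mrpl2 and Mrps15 lie 82 and 248 bases from it.

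The tables list 158 member tags, 1 to 5 per gene, and 103 of them had a count. Of the 72 members 64 had a count in at least 1 library and 39 had counts in all 4. The other 8, listed at 0 in every library, were Mrpl1, Mrpl19, Mrpl35, Mrpl53, Mrps10, Mrps26, Mrps27 and Mrps31. For a gene with 1 listed tag, a count of 0 allows up to 4.74 counts in a library, the level that would leave 0 or 1 reads with a probability of 5%, and for a gene with 5 tags up to 7.63 counts.

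Levels were spread unevenly over the members. The median total over the 4 libraries was 24 counts among the 64 members with a count, 16 members had fewer than 10 counts and 18 had 100 or more. Mrps14, with 5792 counts, stood 241 times above that median. Levels are compared between genes as tag counts with no length scaling, since a transcript gives a tag at a restriction site and not fragments along its length, but how well a tag is recovered can differ between sites.

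The members together held 5110 and 4184 counts on day 21 and 5471 and 6014 counts in untreated cells. These were 0.287% (exact Clopper-Pearson 95% interval 0.279 to 0.294) and 0.257% (0.249 to 0.264) of all counts on day 21. In untreated cells they were 0.279% (0.271 to 0.286) and 0.274% (0.267 to 0.281). Intervals and floors cover counting error only, since PCR copies were not told apart.

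Scaled by TMM, the summed level was 2902 and 2961 CPM on day 21 and 2670 and 2442 CPM in untreated cells, a mean of 2932 ± 42.0 against 2556 ± 161 CPM (SD, n = 2 each). The day 21 libraries both lay above the untreated ones, by 0.20 on the log2 scale between the group means. Under the same scaling the sum over all genes was also higher, at 1013000 and 1154000 CPM on day 21. In untreated cells that sum was 957900 and 892900 CPM, a log2 ratio of 0.23, so the members' gap was no larger than that of all genes. Most of the members' gap lay in 1 gene. Without Mrps14 the sums were 2050 and 1910 CPM on day 21 and 2043 and 1825 CPM in untreated cells, overlapping groups with a log2 ratio of 0.03.

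**Figure D2:**
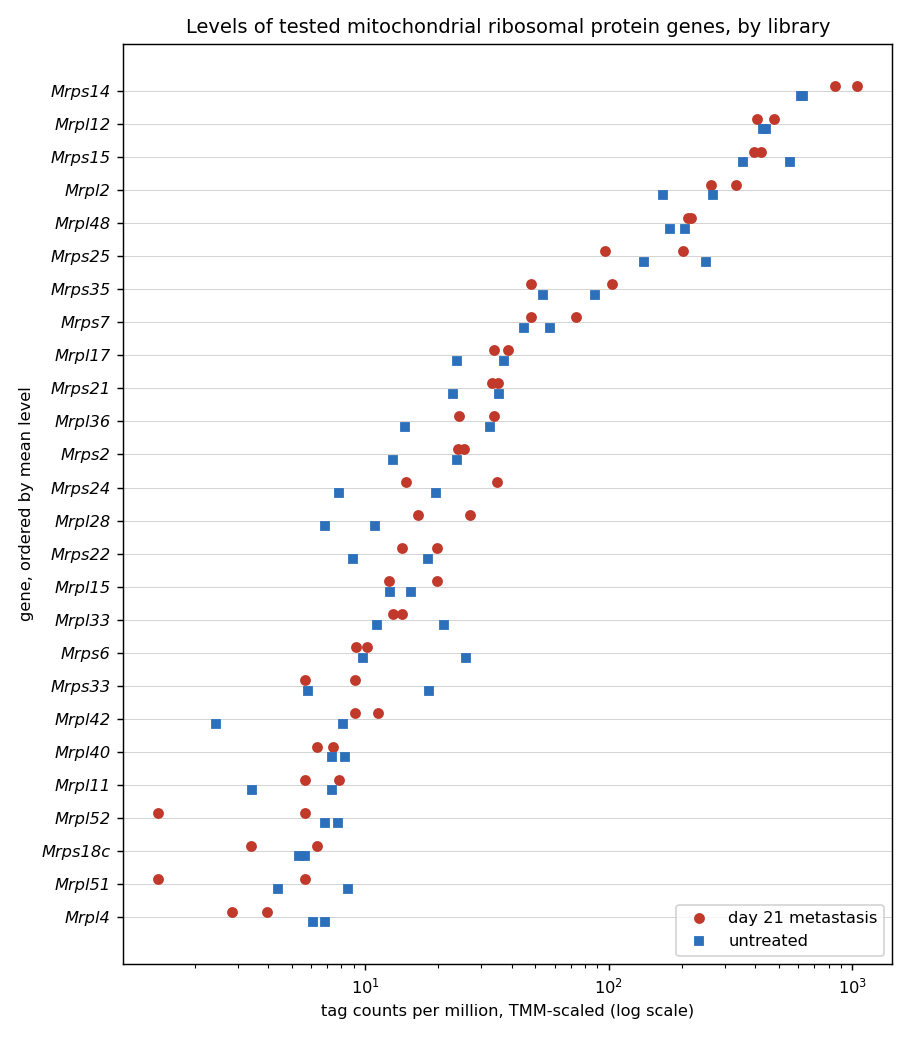
TMM-scaled CPM on a log scale (x axis) for the 26 members with enough counts to be tested (y axis, ordered by mean level), with 1 point per library, day 21 metastasis in red circles and untreated in blue squares. Mrps14 is highest in every library, and the groups overlap for 19 of the 26 genes.

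Of the 72 members 26 passed the filter on low counts, 14 Mrpl and 12 Mrps genes. None of the 26 passed an adjusted p of 0.05 in the edgeR quasi-likelihood test, in DESeq2 or in limma-voom, and 0 had an unadjusted p under 0.05 in the edgeR test. Over all 2979 genes tested, 22 passed (0.739%), 20 of them higher on day 21, and 5.64% had an unadjusted p under 0.05. The smallest edgeR p of a member was 0.0999, for Mrpl28, and all 26 adjusted p-values were 0.999.

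The groups did not overlap for 7 of the 26 members (26.9%), against 31.2% of all tested genes, so separation of the groups was about as frequent among the members as in the background. Mrpl28, Mrpl42, Mrpl48, Mrps14 and Mrps2 were higher in both day 21 libraries, and Mrpl4 and Mrpl52 were lower in both. The fitted change was positive for 16 members (61.5%), against 45.6% of all tested genes. The median log2 change was 0.18 over the members, within a range of -0.99 to 1.27, and -0.07 over all tested genes. With scaling by total counts alone both medians moved down, the members' to -0.06 and that of all genes to -0.29, and without a filter on low counts the members' median was -0.07 over 64 members, so its sign depends on these choices.

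The precision was limited. Standard errors of the members' log2 changes ran between 0.55 and 0.95, and the 95% interval of every one of the 26 included 0 and also a 2-fold change in at least 1 direction. Replicate libraries differed by more than counting noise, with a chi-square per degree of freedom over the 26 members of 7.38 on day 21 and 13.1 in untreated cells, and over all tested genes of 51.4 on day 21 and 80.2 in untreated cells.

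**Figure D3:**
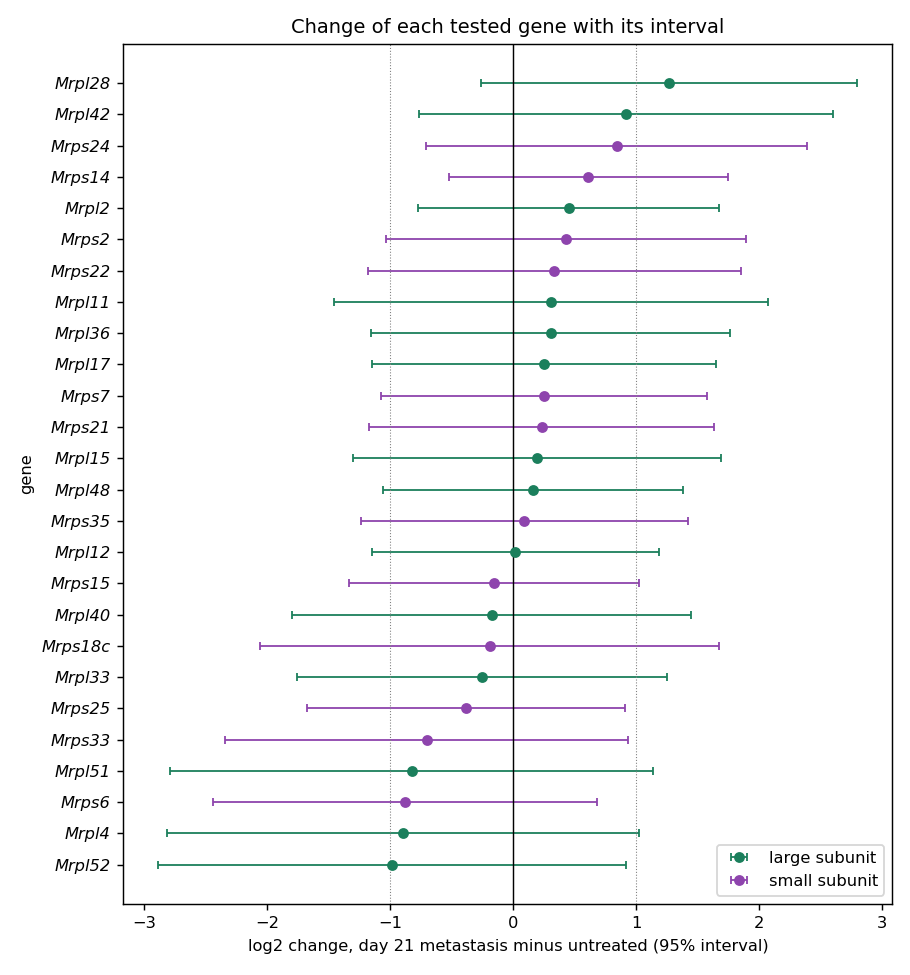
Log2 change of the 26 tested members, day 21 metastasis minus untreated (x axis), with 95% intervals from the edgeR quasi-likelihood fit and dotted lines at a 2-fold change, large-subunit genes in green and small-subunit genes in purple. All intervals include 0, between Mrpl28 at 1.27 and Mrpl52 at -0.99.

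In the small subunit the most abundant gene was Mrps14, whose product belongs to the head of the subunit and has a bacterial counterpart. It had 1500 and 1486 counts (852 and 1052 CPM) on day 21 and 1286 and 1520 counts (628 and 617 CPM) in untreated cells. The day 21 libraries were both higher in CPM while the raw counts overlapped. The fitted log2 change was 0.61 ± 0.55 (SE, 95% interval -0.52 to 1.75). Mrps14 made up 29.4% (95% interval 28.1 to 30.6) and 35.5% (34.1 to 37.0) of the member counts on day 21. The shares were 23.5% (22.4 to 24.7) and 25.3% (24.2 to 26.4) in untreated cells, so it held a larger part of the member counts in both day 21 libraries, a comparison with no test of its own.

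Mrps15, a core protein that binds the ribosomal RNA of the small subunit, had 397 and 421 CPM on day 21 and 555 and 357 CPM in untreated cells. The day 21 libraries lay between the untreated ones (log2 change -0.16 ± 0.57). Mrps25, a mitochondria-specific protein, had 202 and 97.0 CPM on day 21 and 252 and 139 CPM in untreated cells. Mrps35, also mitochondria-specific, had 103 and 48.1 CPM on day 21 and 88.3 and 53.6 CPM in untreated cells. In both of these genes replicate 1 was higher than replicate 2 in each group and the groups overlapped, with log2 changes of -0.39 ± 0.63 and 0.09 ± 0.65.

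Mrps7, whose bacterial counterpart organises the assembly of the head, had 73.8 and 48.1 CPM on day 21 and 57.6 and 45.1 CPM in untreated cells. Mrps21 had 35.2 and 33.3 CPM on day 21 and 22.9 and 35.3 CPM in untreated cells. Their groups overlapped, with log2 changes of 0.25 and 0.23. Mrps2, a core protein at the back of the small subunit, had 25.6 and 24.1 CPM on day 21 and 23.9 and 13.0 CPM in untreated cells. Its groups were separate by a small margin (log2 change 0.43 ± 0.71).

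Lower in level, Mrps24 had 26 and 49 counts on day 21 and 16 and 48 counts in untreated cells. Replicate 2 was higher in each group, and the fitted change was 0.84 ± 0.75 on the log2 scale, or 0.14 without day 21 replicate 2 and 1.68 without untreated replicate 2. Mrps6 had 18 and 13 counts on day 21 and 20 and 64 counts in untreated cells. Mrps33, a mitochondria-specific protein, had 16 and 8 counts on day 21 and 12 and 45 counts in untreated cells. For both, untreated replicate 2 was by far the highest library, and the log2 changes of -0.88 ± 0.76 and -0.71 ± 0.80 became 0.02 and 0.36 without it.

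Over all 28 Mrps genes the summed level was 1751 and 1813 CPM on day 21 and 1691 and 1355 CPM in untreated cells (1782 ± 43.8 and 1523 ± 238, SD, n = 2 each, log2 ratio 0.23, or 0.008 with scaling by total counts alone). Without Mrps14 it was 900 and 762 CPM on day 21 and 1063 and 738 CPM in untreated cells, with overlapping groups and a ratio of -0.12. By structure, the 8 tested small-subunit proteins with a bacterial counterpart had a median log2 change of 0.24 and the 4 tested mitochondria-specific ones a median of -0.15. Both groups of proteins held members of either sign, 5 positive and 3 negative in the first and 2 of each in the second.

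**Figure D4:**
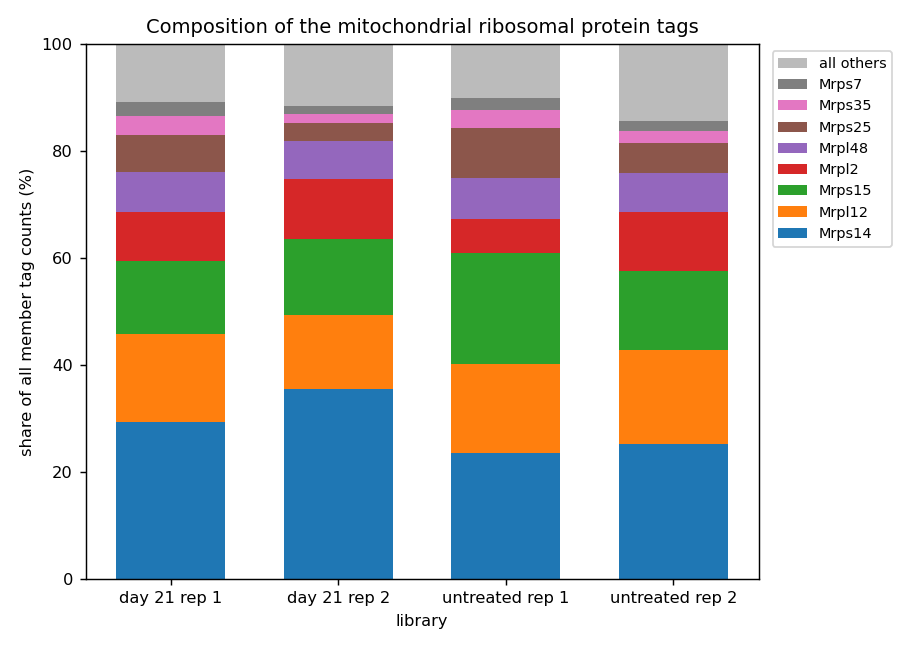
Share of all member tag counts in percent (y axis) held by each of the 8 most abundant members and by all others together, in each library (x axis). The 8 genes held 89.1% and 88.5% of the member counts on day 21 and 89.8% and 85.6% in untreated cells, and the Mrps14 share was 29.4% and 35.5% on day 21 and 23.5% and 25.3% in untreated cells.

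In the large subunit the most abundant gene was Mrpl12, which forms the flexible stalk that contacts translation factors and whose bacterial counterpart does the same. It had 838 and 575 counts (476 and 407 CPM) on day 21 and 911 and 1057 counts (445 and 429 CPM) in untreated cells. The day 21 libraries lay on either side of the untreated ones, and the log2 change was 0.02 ± 0.57 (95% interval -1.15 to 1.18). Mrpl2, a core protein near the peptidyl transferase centre, had 263 and 334 CPM on day 21 and 167 and 269 CPM in untreated cells. Mrpl48, a mitochondria-specific protein, had 218 and 212 CPM on day 21 and 207 and 178 CPM in untreated cells. Its groups were separate but close (log2 change 0.16 ± 0.59), and those of Mrpl2 overlapped (0.45 ± 0.59).

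Mrpl28 had the largest fitted change of the tested members and the smallest p. It had 29 and 38 counts (16.5 and 26.9 CPM) on day 21 and 14 and 27 counts (6.83 and 11.0 CPM) in untreated cells, a mean of 21.7 ± 7.37 against 8.90 ± 2.92 CPM (SD, n = 2 each). Both day 21 libraries were higher than both untreated ones. The log2 change was 1.27 ± 0.74 (95% interval -0.26 to 2.80, edgeR adjusted p = 0.999). Mrpl42, a mitochondria-specific protein, had 16 and 16 counts on day 21 and 5 and 20 counts in untreated cells (log2 change 0.92 ± 0.82, or 0.33 without untreated replicate 1 and 2.05 without untreated replicate 2).

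Mrpl17, whose bacterial counterpart lies near the exit tunnel, had 38.6 and 34.0 CPM on day 21 and 37.1 and 24.0 CPM in untreated cells, with overlapping groups. Mrpl52, a mitochondria-specific protein, had the lowest fitted change, with 10 and 2 counts on day 21 and 14 and 19 counts in untreated cells (log2 change -0.99 ± 0.92, or -2.26 without day 21 replicate 1 and -0.32 without day 21 replicate 2). Mrpl4, which lines the exit tunnel, had 7 and 4 counts on day 21 and 14 and 15 counts in untreated cells (-0.90 ± 0.93). These 2 genes were lower in both day 21 libraries, at counts near the filter. Mrpl51 had 10 and 2 counts on day 21 and 9 and 21 counts in untreated cells, and Mrpl40 had 13 and 9 counts on day 21 and 17 and 18 counts in untreated cells, with overlapping levels and log2 changes of -0.83 ± 0.95 and -0.18 ± 0.79. With 1 library left out these ran over -2.10 to -0.16 for Mrpl51, lowest without day 21 replicate 1 and highest without day 21 replicate 2, and over -0.24 to -0.04 for Mrpl40.

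Summed over all 44 Mrpl genes, the level was 1151 and 1148 CPM on day 21 and 980 and 1088 CPM in untreated cells (1149 ± 1.79 and 1034 ± 76.4, SD, n = 2 each, log2 ratio 0.15). The day 21 libraries were both higher under TMM, but with scaling by total counts alone the ratio was -0.07, so its direction was not stable. The 9 tested large-subunit proteins with a bacterial counterpart had a median log2 change of 0.25, with 7 positive, and the 5 mitochondria-specific ones a median of -0.18, with 2 positive. These medians rest on few genes, and no difference between the classes was tested.

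The 46 members that were not tested include 38 with counts, which summed to 62.5 and 48.8 CPM on day 21 and to 63.0 and 77.2 CPM in untreated cells. Among the 64 members with a count, 11 were listed at 0 in both day 21 libraries with counts in untreated cells (17.2%), against 18.1% of all genes with counts. They were Mrpl50, Mrpl3, Mrpl21, Mrpl32, Mrpl39, Mrpl44, Mrpl47, Mrps12, Mrps17, Mrps23 and Mrps34, with at most 9 counts in an untreated library. The reverse, 0 in both untreated libraries, held for 2 members (3.12%), against 7.74% of all genes with counts. Mrpl20 had 7 and 5 counts on day 21, against 0 and 0 in untreated cells, and Mrps5 had 2 and 2 counts on day 21, against 0 and 0 in untreated cells, at a tag that also matches the transcript Gm13328. Both untreated floors lie close to or above these counts, so no fold is given.

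Several members were read at 2 or more tags, which show whether sites of the same gene moved alike. The tags of Mrpl28, the tested member with the largest change, and of Mrps6 are shown because their coding and 3′ UTR sites can be set side by side, with the 2 member tags that run into the poly(A) tail.
Mrpl28, coding: CATGgacctgaagcgagggatgctg
Mrpl28, 3′ UTR: CATGtgccgagcacacagttcctgt
Mrps6, coding: CATGcggcggccagagaccgctgct
Mrps6, 3′ UTR: CATGaccattttgctgcaggaggta
Mrps6, tail: CATGactttatcaacaaaaaaaaaa
Mrpl36, tail: CATGactgttcttacaaaaaaaaaa

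The coding tag of Mrpl28 had 17 and 27 counts on day 21 and 8 and 13 counts in untreated cells. Its 3′ UTR tag, at the last site, had 12 and 11 counts on day 21 and 6 and 14 counts in untreated cells. These are raw counts, and once scaled by TMM both tags were higher in both day 21 libraries. The higher level on day 21 lay mainly in the coding tag. That tag held 17 of 29 and 27 of 38 counts on day 21 and 8 of 14 and 13 of 27 in untreated cells, a larger share in both day 21 libraries by a small margin. For Mrps6 the coding tag had 10 and 7 counts on day 21 and 7 and 24 counts in untreated cells, and the 3′ UTR tag 8 and 6 counts on day 21 and 11 and 36 counts in untreated cells. The coding tag held 10 of 18 and 7 of 13 counts on day 21 and 7 of 20 and 24 of 64 in untreated cells, again a larger share in both day 21 libraries, and it also matches the transcript Gm49711. Of the counted member tags, 11 match a transcript of another gene, so those counts are uncertain.

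The coding tag of Mrps21 also had a larger share in both day 21 libraries, with 11 of 62 and 18 of 47 counts on day 21 and 6 of 47 and 12 of 87 in untreated cells, while its 3′ UTR tag had a smaller one. The Mrps21 coding tag also matches the transcript Gm6181. For Mrpl40 the main 3′ UTR tag held 11 of 13 and 5 of 9 counts on day 21 and 10 of 17 and 9 of 18 in untreated cells, so the shares overlapped and day 21 replicate 1 stood apart. The coding tag of Mrpl40 had a smaller share in both day 21 libraries, at 15.4% and 22.2%. In untreated cells that tag held 29.4% and 27.8%, with at most 5 counts in any library. The tags of the tail each end in a run of A and match the annotated end of a coding transcript of Mrps6 or Mrpl36 only when the transcript is extended by 9 bases of A. The Mrps6 tail tag had 0 and 0 counts on day 21, against 2 and 4 in untreated cells, and the Mrpl36 tail tag 0 and 0 counts on day 21, against 4 and 5 in untreated cells. A count of 0 at 1 tag allows up to 4.74 counts, and over all genes 17 and 10 of the 87 listed tags with such a run had counts on day 21, against 38 and 27 in untreated cells. As shares of all counts, these tags held 0.038% and 0.020% on day 21 and 0.056% and 0.031% in untreated cells, with overlapping groups. No difference between sites was tested.

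Set beside genes of related machinery, the members' median change lay above that of the ribosomal proteins of the cytosol and near that of the respiratory chain. The 63 tested cytosolic ribosomal protein genes had a median log2 change of -0.64, with 59 negative (54.4% of all tested genes were negative) and 34 lower in both day 21 libraries (16% of all tested genes were), although 0 passed the adjusted threshold in the edgeR test and 1 had an unadjusted p under 0.05. The 67 tested genes of the respiratory chain and ATP synthase set were picked by symbol. Most of the complexes contain products of the mitochondrial ribosome. Sdha, Sdhb, Sdhc, Sdhd and Cycs lie outside such complexes, and Cox4nb is not a subunit of the chain despite its symbol. The 67 genes had a median of 0.04, with 35 positive and 32 negative. One of them rose, Cox6a2, a muscle-type subunit of cytochrome c oxidase, and it lies far from the others. All 3 sets come from the same 4 libraries, and no difference between sets was tested.

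**Figure D5:**
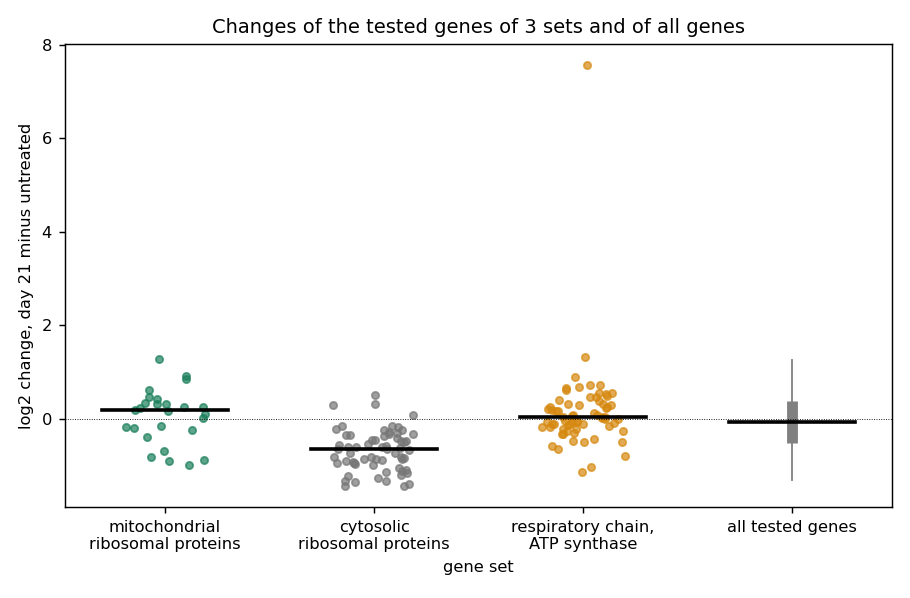
Log2 change, day 21 metastasis minus untreated (y axis), for each tested gene of 3 sets (points, with the median as a bar) and for all tested genes (bar at the median, thick line between the 25th and 75th percentiles, thin line between the 5th and 95th percentiles). The medians are 0.18 for mitochondrial ribosomal proteins, -0.64 for cytosolic ribosomal proteins, 0.04 for the respiratory chain and ATP synthase and -0.07 for all tested genes.

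Genes that serve the mitochondrial ribosome were tested in 6 further lists, and 0 of their 22 tested genes passed the adjusted threshold in the edgeR test, with 1 at an unadjusted p under 0.05. That gene was Gfm2, which recycles mitochondrial ribosomes after termination, with 41 and 34 counts on day 21 and 2 and 12 counts in untreated cells. Both day 21 libraries were higher, with a log2 change of 2.96 ± 0.84 (edgeR adjusted p = 0.136). It passed the adjusted threshold with a likelihood ratio test and without untreated replicate 2, where the change was 4.53. Gfm1, the elongation factor that moves the ribosome along the messenger RNA, had 34 and 13 counts on day 21 and 68 and 30 counts in untreated cells (log2 change -0.66 ± 0.75).

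Of the mitoribosome genes without an Mrpl or Mrps number, Gadd45gip1 had 137 and 90 counts on day 21 and 112 and 179 counts in untreated cells, and Aurkaip1 had 15 and 11 counts on day 21 and 14 and 21 counts in untreated cells. Their groups overlapped in CPM, with log2 changes of 0.15 and 0.08. Among 3 tested assembly genes Dhx30, an RNA helicase, had 63 and 25 counts on day 21 and 171 and 58 counts in untreated cells (log2 change -0.99 ± 0.73). Among 10 tested genes of protein import Hspd1, the matrix chaperonin, had 9 and 6 counts on day 21 and 27 and 29 counts in untreated cells, lower in both day 21 libraries without passing the test (-1.40 ± 0.80, edgeR adjusted p = 0.995). Tomm22 and Tomm7, subunits of the outer-membrane translocase, had log2 changes of -0.69 ± 0.75 and -0.62, and the import list had a median of -0.37, with 3 positive and 7 negative. The summed level of that list did not fall, at 792 and 970 CPM on day 21 and 712 and 845 CPM in untreated cells, with overlapping groups.

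The other genes named from these lists had fitted changes smaller than their standard errors. Mtfmt, which formylates the initiator tRNA, had 12 and 5 counts on day 21 and 8 and 25 counts in untreated cells (log2 change -0.43 ± 0.87). Fars2, a mitochondrial aminoacyl-tRNA synthetase, Gars, a synthetase used in both compartments, and Nrf1, a transcription factor of nuclear genes for mitochondria, had log2 changes of -0.16, 0.08 and 0.04. For Rnmtl1, a ribosomal RNA methyltransferase, and Fastkd2, an RNA-binding assembly factor, they were 0.48 and -0.09.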

How the data were processed

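The authors deposited raw counts for tags of 21 bases, each paired with a symbol and a RefSeq identifier, per the file headers. Tags were placed on build mm9, per the submitters' processing notes, with a matching tool not given in the sources used here. All tags sharing a symbol were summed, which left 7236 genes with counts. The quasi-likelihood test of edgeR 4.0.16 in R 4.3.3 was fitted with group as its only term. TMM factors were 0.987 and 0.866 on day 21 and 1.04 and 1.12 in untreated libraries. The filter filterByExpr required a count of 10 and a total of 15, and p-values were adjusted by Benjamini-Hochberg over the 2979 genes left (threshold 0.05). The biological coefficient of variation was 0.482, and the steps were tested on simulated data. Alternatives used DESeq2 1.42.0 and limma 3.58.1. Each tag, preceded by CATG, was matched to GENCODE M21 transcripts of GRCm38, where 156 of 158 member tags matched their own gene.

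The members, lists and tests were chosen with earlier results of these data known. Members named are the 10 of highest mean CPM, the 6 higher and 6 lower of smallest p, any at 0 in both libraries of 1 group with at least 10 counts in each of the other, and those with at least 50 counts and 2 tags of 10% or more. Up to 3 genes of smallest p were named for each further list, and members outside this rule (listed at 0, or read at the poly(A) tail) were named after their values were seen.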

Additional observations from a re-analysis of the deposited data

How the results depend on the processing

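No member passed the adjusted threshold in any of the 17 alternatives, where the smallest adjusted p of a member was 0.293. Unadjusted p-values under 0.05 appeared for Mrpl20 without a filter, Mrpl38 without day 21 replicate 1 and Mrpl28 with the replicate block. The 22 genes that passed over all genes became 9 with total counts alone, 41 without a filter, 37 with at least 10 counts in each library of 1 group, 12 with limma-voom, 41 with the likelihood ratio test, 37 with the replicate block, 9 with the top tag per gene and 10 with tags that match no other gene, and 9 to 81 with 1 library left out (9 without untreated replicate 1, 81 without untreated replicate 2). The labels give no shared source to same-numbered libraries. Their deviations from the group means correlated at 0.54 across 2979 genes, with 2 pairs of libraries. The block called no member either.

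The log2 ratio of summed Mrpl levels was -0.073 with total counts alone and 0.082 to 0.26 with 1 library left out. That of Mrps levels was 0.008 with total counts alone and 0.10 to 0.40 with 1 library left out. The Mrps ratio was -0.12 when Mrps14 was left out of the sum, a choice made after seeing the data. The members' median was 0.043 to 0.19 with 1 library left out. Against all genes it was higher in every alternative, by 0.051 to 0.33.

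With total counts alone the change was -0.20 for Mrpl12, -0.052 for Mrpl15, -0.058 for Mrpl48, -0.087 for Mrps35, -0.14 for Aurkaip1, -0.069 for Gadd45gip1, -0.17 for Gars and -0.16 for Nrf1. With the top tag it was -0.018 for Mrpl12, -0.049 for Mrps21, -0.28 for Gars and -0.19 for Nrf1, with tags that match no other gene -0.048 for Mrps21, and with the replicate block -0.031 for Nrf1. The cause was not tested.

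With 1 library left out the log2 change ran over -0.061 to 0.28 for Aurkaip1, -1.61 to 0.19 for Dhx30, -0.31 to 0.046 for Fars2, -0.61 to 0.41 for Fastkd2, -0.036 to 0.40 for Gadd45gip1, -0.22 to 0.48 for Gars, -1.24 to 0.24 for Gfm1, -0.12 to 0.98 for Mrpl11, -0.05 to 0.16 for Mrpl12, -0.14 to 0.55 for Mrpl15, -0.006 to 0.60 for Mrpl17, -0.63 to 0.30 for Mrpl33 and -0.15 to 1.02 for Mrpl36. It ran over -0.41 to 0.20 for Mrps15, -0.66 to 0.25 for Mrps18c, -0.043 to 0.60 for Mrps21, -0.064 to 0.92 for Mrps22, -0.96 to 0.11 for Mrps25, -1.29 to 0.36 for Mrps33, -0.51 to 0.57 for Mrps35, -1.41 to 0.019 for Mrps6, -0.04 to 0.56 for Mrps7, -0.94 to 0.44 for Mtfmt, -0.69 to 0.55 for Nrf1 and -2.06 to 0.10 for Tomm7. Without a change of sign it ran over 0.15 to 0.86 for Mrpl2, 0.91 to 1.68 for Mrpl28, -1.12 to -0.66 for Mrpl4, 0.082 to 0.27 for Mrpl48, 0.49 to 0.81 for Mrps14, 0.078 to 0.93 for Mrps2, 0.15 to 0.96 for Rnmtl1, -1.49 to -1.24 for Hspd1 and -0.98 to -0.39 for Tomm22. Of the 26 tested members 10 kept their sign in every setting that tested them, and 11 of the other 16 changed it only when 1 library was left out. With 2 libraries per group, the standard errors of 0.55 to 0.95 limit what could be detected.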
